A study of Homo sapiens with 12 samples.

Results

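Bidirectional protein-coding promoters are places where 2 protein-coding genes start back to back and are read in opposite directions. A pair was taken where the GENCODE canonical start site of a minus-strand gene lay upstream of that of a plus-strand gene, 1 to 1000 bp apart on GRCh38. The rule used the annotation and no measured value. It found 984 pairs, made of 1895 of the 19970 protein-coding start sites (9.49%). Some pairs share a gene (141 of 984, through 72 genes that stand in more than 1 pair), and after overlapping intervals were merged 912 separate intervals were left, so the pairs are not independent. The interval is the stretch from 1 start site to the other with both included, and each flank is the 1000 bp from a start site into its gene. The start sites lay 11 to 1000 bp apart, with a median of 233.5 bp and quartiles of 122 and 401.8 bp.

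In such a promoter a single nucleosome-depleted stretch commonly serves both genes, and the polymerases leave it in opposite directions. Many housekeeping genes are arranged in this way, among them genes of DNA repair, of mitochondria, of RNA processing and of the core histones, and the shared stretch is usually a CpG island without a TATA box. H3K4me2, dimethylation of lysine 4 of histone H3, is carried by nucleosomes beside active and poised start sites and at enhancers, so that a start site free of nucleosomes can appear as a gap between a pair of marked flanks. LSD1, a demethylase of the CoREST complex, removes this mark.

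The mark was mapped by ChIP-seq (sequencing of DNA recovered with an antibody to it) in U-937, an established line of human monocytic leukaemia cells. Treatment lasted 24 hours and consisted of DMSO as the vehicle, of 0.1 µM Corin, of 0.1 µM ATRA (all-trans retinoic acid, the ligand of the retinoic acid receptors), or of both drugs together, each at 0.1 µM (ATRA+Corin). Corin is a synthetic dual inhibitor of LSD1 and of the class I histone deacetylases of CoREST. Each treatment had 2 H3K4me2 libraries and 1 input, 12 libraries in all, and the values used here are the 4 peak lists that the authors deposited, 1 per treatment. Nothing in the labels says whether the libraries of a treatment came from separate cultures. With 1 pooled list per treatment the replicates cannot be compared, so no test was run and each difference is one between lists. Shares carry 95% Wilson intervals, which cover counting error only. In a bulk sample, a mark on fewer cells and less of the mark in each cell cannot be told apart.

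Every base of these bulk lists is either under a peak or not, so the results are counts of covered bases. An interval was called wholly covered where each of its bases lay under a peak of the list, partly covered where some did, and uncovered where none did. Where 4 values stand together without labels, they are in the order DMSO, ATRA, Corin and ATRA+Corin. The lists held 65172 (DMSO), 66385 (ATRA), 73997 (Corin) and 83969 (ATRA+Corin) peaks on 23 chromosomes, and in none of them were neighbouring peaks closer than 102 bp. A gap in an interval shorter than that therefore has to reach past at least 1 start site. Depth per library is not given by the lists. Of 14 myelomonocytic marker genes, 13 had a peak within 1 kb of the start site in each list, all but MPO. The lists also met 2 of 4 B cell genes, CD4 and LCK (of 5 T cell genes) and KLF1 (of 4 erythroid genes).

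The intervals printed here show the kinds of pair that the results turn on, in lower case from the plus strand of GRCh38. Capitals mark each match, on either strand, to a motif from a short list of promoter elements. CCGGAAG is bound by the ETS family of activators, which includes GABP. CCAAT is bound by NF-Y, a factor of many housekeeping promoters. The core of the NRF1 motif, a regulator of mitochondrial genes, was searched as GCGCATGC, and that of YY1 as AAGATGGC. GGGCGGG is bound by the SP and KLF families of zinc finger proteins. The TATA box was searched as TATAAA, and no motif on the list lies within another. STX10/IER2 (chr19:13150375-13150411), DDX28/DUS2 (chr16:68023232-68023284) and ANAPC2/SSNA1 (chr9:137188560-137188676) were wholly covered in the DMSO list and uncovered in the Corin list. MRPL14/TMEM63B (chr6:44127452-44127554) and SURF1/SURF2 (chr9:133356487-133356550) were wholly covered in every list except that of the combination, and LRRC41/UQCRH (chr1:46303616-46303698) was uncovered in the DMSO list and wholly covered in the ATRA list. CLCN2/POLR2H (chr3:184361605-184361710) was wholly covered in the 4 lists, MED22/RPL7A (chr9:133348131-133348218) was uncovered between marked flanks in the 4 lists, COL4A1/COL4A2 (chr13:110307157-110307284) had no peak in any, and H2AC14/H2BC14 (chr6:27814777-27815022) stands for the histone pairs.
STX10/IER2: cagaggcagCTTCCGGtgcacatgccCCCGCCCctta
DDX28/DUS2: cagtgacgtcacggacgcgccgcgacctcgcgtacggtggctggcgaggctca
ANAPC2/SSNA1: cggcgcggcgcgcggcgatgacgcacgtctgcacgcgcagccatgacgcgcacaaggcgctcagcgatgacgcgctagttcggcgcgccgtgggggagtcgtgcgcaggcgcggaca
MRPL14/TMEM63B: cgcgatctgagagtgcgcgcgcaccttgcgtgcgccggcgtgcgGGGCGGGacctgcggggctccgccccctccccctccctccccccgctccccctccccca
LRRC41/UQCRH: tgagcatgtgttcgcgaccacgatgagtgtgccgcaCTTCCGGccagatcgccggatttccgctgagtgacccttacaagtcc
SURF1/SURF2: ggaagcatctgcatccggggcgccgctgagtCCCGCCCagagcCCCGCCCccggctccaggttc
CLCN2/POLR2H: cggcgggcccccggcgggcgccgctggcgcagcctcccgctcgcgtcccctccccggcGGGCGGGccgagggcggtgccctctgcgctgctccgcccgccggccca
MED22/RPL7A: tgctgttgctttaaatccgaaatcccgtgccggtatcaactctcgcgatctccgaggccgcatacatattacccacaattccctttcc
COL4A1/COL4A2: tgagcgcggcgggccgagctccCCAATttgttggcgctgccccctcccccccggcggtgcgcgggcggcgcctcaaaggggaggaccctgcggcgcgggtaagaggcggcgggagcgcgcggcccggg
H2AC14/H2BC14: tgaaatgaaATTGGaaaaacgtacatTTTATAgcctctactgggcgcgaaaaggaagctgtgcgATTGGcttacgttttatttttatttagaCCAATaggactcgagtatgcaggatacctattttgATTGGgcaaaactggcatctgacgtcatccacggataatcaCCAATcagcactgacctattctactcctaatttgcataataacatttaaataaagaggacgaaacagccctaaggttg

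The printed intervals differ in composition. CLCN2/POLR2H has a GC content of 87.7% and MRPL14/TMEM63B of 80.6%, against 50% in MED22/RPL7A and 39.0% in H2AC14/H2BC14, which holds 6 motif matches, all of them CCAAT apart from 1 TATA box. DDX28/DUS2 and ANAPC2/SSNA1, on the other hand, held none of the motifs searched.

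H3K4me2 peaks flanked nearly every pair in every list, and the lists differed in how much of the stretch between the start sites was covered. With DMSO, 371 of 984 intervals (37.7%, interval 34.7 to 40.8%) were wholly covered, 401 were partly covered and 212 were uncovered. With ATRA 400 were wholly covered (40.65%, 37.6 to 43.75%), with Corin 236 (23.98%, 21.4 to 26.75%) and with ATRA+Corin 220 (22.4%, 19.9 to 25.1%). Both lists from cells that received Corin thus held fewer wholly covered intervals than the lists from cells that did not. As a background, the 234 bp (the members' median interval length) directly upstream of each of the 19970 protein-coding start sites were wholly covered in 37.5% with DMSO, 39.5% with ATRA, 29.6% with Corin and 29.8% with ATRA+Corin. Whole cover was thus lower with Corin over all start sites as well. The intervals vary in length and the windows do not, so these shares are not a like comparison. Of the 1895 windows at paired start sites, 804 were whole with DMSO, 862 with ATRA and 555 with Corin. Over all 19970 start sites the counts were 7487, 7884 and 5915. On like windows the paired share was therefore higher than that of all sites with DMSO and ATRA, and close to it with Corin. This did not hold among CpG-rich sites alone (defined below). Of 1718 CpG-rich paired windows, 729 were whole with DMSO, 781 with ATRA and 489 with Corin. Of the other CpG-rich windows (1699 with a divergent long noncoding RNA start site and 9534 with none), 5595, 5797 and 4238 were whole. Among CpG-rich sites the paired share was thus the lower in each of these lists. Of the 984 intervals, 12 repeat another pair's interval, and the 972 distinct ones were whole in 366, 393, 232 and 217. Uncovered intervals numbered 200 with ATRA, 340 with Corin and 347 with ATRA+Corin.

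Some cover of the flanks was nearly always present, while whole cover of them differed between the lists much as that of the intervals did. A peak lay in both flanks of 923 pairs with DMSO, 925 with ATRA, 923 with Corin and 925 with ATRA+Corin. Peaks covered on average 89.5% of the minus-strand gene's flank with DMSO, 90.05% with ATRA, 88.1% with Corin and 88.2% with ATRA+Corin. On the plus-strand gene's side the mean cover was 89.3% with DMSO, 89.9% with ATRA, 87.9% with Corin and 88.2% with ATRA+Corin. Both flanks were covered from end to end, however, in 368 pairs with DMSO, 409 with ATRA, 253 with Corin and 227 with ATRA+Corin. The mean cover of the interval was 52.9% with DMSO, 55.4% with ATRA, 40.45% with Corin and 38.2% with ATRA+Corin. Pairs with a peak in both flanks and at least 1 uncovered base between the start sites numbered 552 with DMSO, 525 with ATRA, 687 with Corin and 705 with ATRA+Corin. Among these, the interval was bare from 1 start site to the other in 157 pairs with DMSO, 146 with ATRA, 285 with Corin and 294 with ATRA+Corin.

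**Figure D1:**
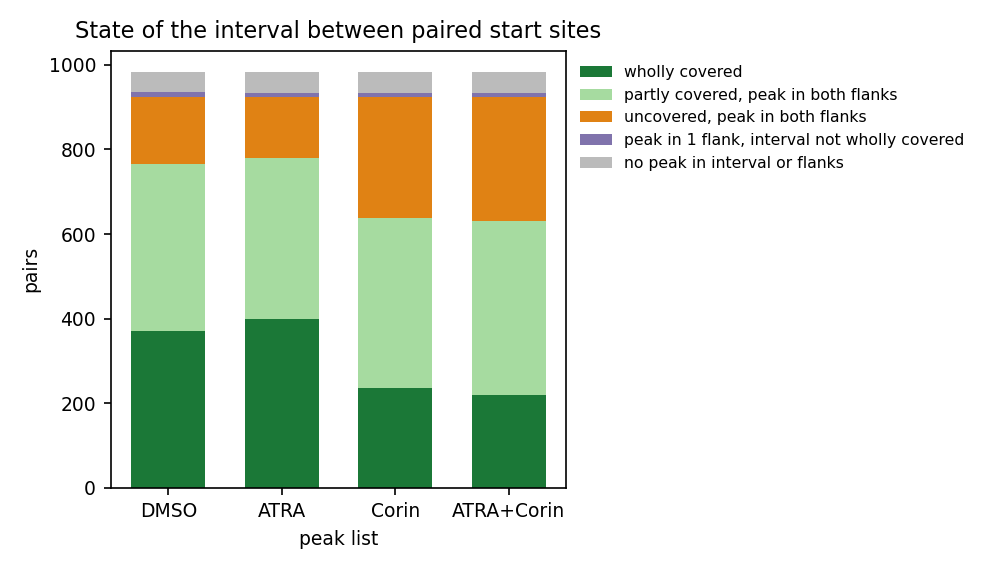
State of the interval in the 984 pairs (y axis, number of pairs) in each of the 4 peak lists (x axis), stacked by colour. The wholly covered part is 371 and 400 pairs high in the DMSO and ATRA lists and 236 and 220 in the Corin and ATRA+Corin lists, while the part with no peak holds 49 or 50 pairs in each list.

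The profile across the pairs dips inside the interval, rises into both genes and then falls off with distance. At the middle of the interval 49.9% of pairs were under a peak with DMSO, 53.25% with ATRA, 40.35% with Corin and 37.6% with ATRA+Corin. At the minus-strand start site itself the shares were 64.0% (DMSO), 65.85% (ATRA), 49.0% (Corin) and 46.3% (ATRA+Corin), and at the plus-strand site 65.35%, 67.6%, 48.3% and 49.3%. By 500 bp into the gene the lists had come together, at 92.2% (DMSO), 92.4% (ATRA), 92.0% (Corin) and 92.2% (ATRA+Corin) on the minus-strand side. Farther in the order was the other way round. At 1500 bp into the minus-strand gene 56.5% of pairs were covered with DMSO and 60.0% with ATRA, against 78.05% with Corin and 77.7% with ATRA+Corin, and at 2000 bp the shares were 26.0% (DMSO), 26.4% (ATRA), 48.7% (Corin) and 51.2% (ATRA+Corin). The pairs thus had less cover at the start sites and more cover deep in both genes in the lists with Corin. Shares of other start sites at these distances are not given here, so this is not shown to be particular to pairs.

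**Figure D2:**
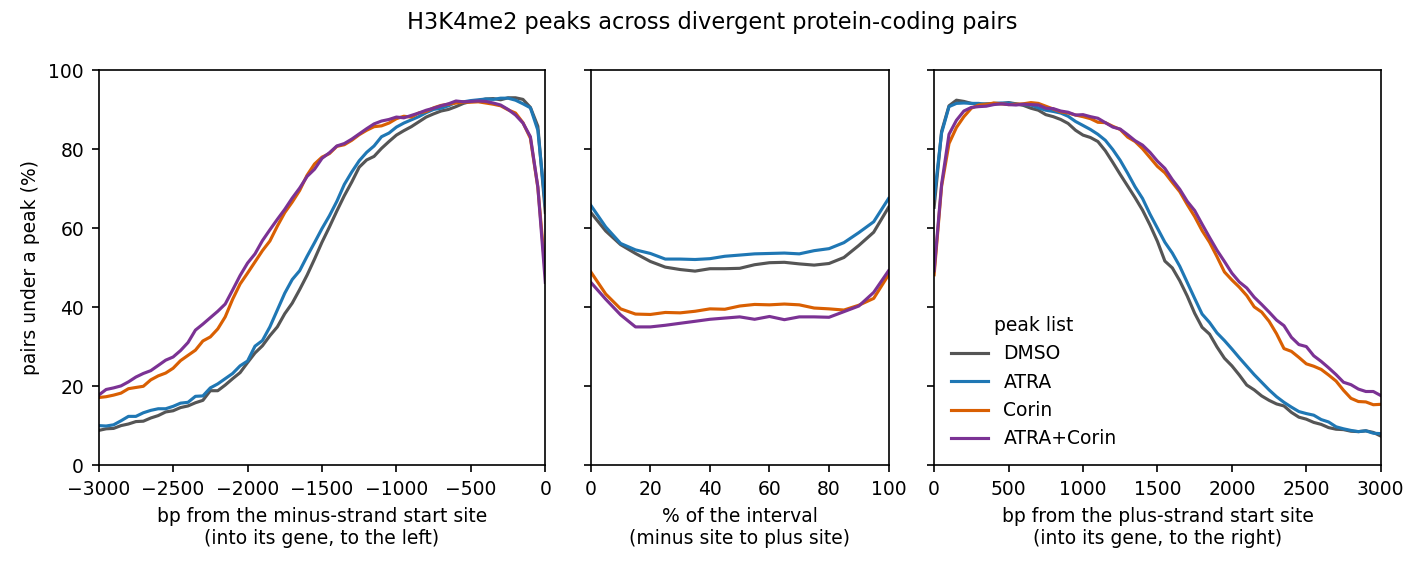
Share of the 984 pairs under an H3K4me2 peak (y axis, percent) at each distance in bp into the minus-strand gene (left), across the interval in steps of its length (middle) and into the plus-strand gene (right), 1 line per peak list. The Corin and ATRA+Corin lines lie below the DMSO and ATRA lines across the interval and above them from about 1000 bp into either gene.

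To ask what each drug changed at a given pair, the lists were compared interval by interval. An interval lost whole cover where it was wholly covered in the reference list and not in the other, and gained it in the opposite case. The background is the same count for the 234 bp windows upstream of all protein-coding start sites. It was made for whole cover lost or gained only. Changes in covered bases, and between whole and uncovered, have no such background. The comparisons share lists: the DMSO list serves each drug, and the ATRA+Corin list is also set against each single drug.

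With Corin against DMSO, 160 pairs lost whole cover (16.3%, background 10.4%) and 25 gained it (2.54%, background 2.51%). The losses were 43.1% of the 371 intervals that were whole with DMSO. In 55 of the 160 the interval went from wholly covered to uncovered, against 7 in the other direction, and 157 of the 160 still had a peak in both flanks. Counted in bases, 446 intervals had fewer covered bases with Corin than with DMSO, 145 had more and 393 had the same number.

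With ATRA against DMSO the balance was the opposite: 69 pairs lost whole cover (7.01%, background 3.54%) and 98 gained it (9.96%, background 5.52%). The interval went from whole to uncovered in 12 pairs and from uncovered to whole in 21. More covered bases were found in 304 intervals and fewer in 227. Both directions stood above the background, and the 69 losses were 18.6% of the intervals that were whole with DMSO.

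With ATRA+Corin against DMSO, 175 pairs lost whole cover (17.8%, background 10.5%) and 24 gained it (2.44%, background 2.9%). Against ATRA alone the combination lost 193 (19.6%, background 11.4%) and gained 13 (1.32%, background 1.75%). Against Corin alone it lost 74 (7.52%, background 4.8%) and gained 58 (5.89%, background 5.03%). The gains in the first 2 of these comparisons were thus near the background and the losses above it. The combination and Corin alone changed state in fewer intervals between each other than either did against DMSO. Whole intervals became uncovered in 58, 65 and 33 pairs in these 3 comparisons, against 5, 4 and 16 in the other direction.

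Intervals and background windows differ in length and in how often they are covered to begin with. The same 234 bp window was therefore also compared between start sites, counting only windows that were whole in the reference list. Of windows at paired start sites, 37.2% of 804 lost whole cover with Corin against DMSO, compared with 26.6% of 6683 at other start sites. For ATRA against DMSO the shares were 15.55% at paired and 8.69% at other start sites, for ATRA+Corin against DMSO 41.3% and 26.5%, for ATRA+Corin against ATRA 42% and 27.2%, and for ATRA+Corin against Corin 26.85% and 15.1%. Among CpG-rich start sites alone (GC content of at least 50% and an observed/expected CpG ratio of at least 0.6 within 500 bp either side) the loss with Corin was 38.8% of 729 windows at paired sites and 29.1% of 5595 at others. At paired sites the window often holds a second start site, which lone sites lack, and the part of this in the difference was not tested.

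Across the lists the pairs fell into a few main patterns. Whole cover in no list was found for 497 pairs, and in all 4 lists for 154. It was found with ATRA only in 73 pairs, with DMSO and ATRA only in 64 and with DMSO only in 56, whereas 9 were whole with Corin only and 8 with the combination only. These patterns have no background over all start sites, so they are not shown to be particular to pairs. Over all start sites, too, fewer windows were whole with Corin (29.6%) and ATRA+Corin (29.8%) than with DMSO (37.5%) and ATRA (39.5%).

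Cover also varied with the length of the interval. Of the 188 pairs at most 100 bp apart, 66.5% were wholly covered with DMSO, 70.2% with ATRA, 50.5% with Corin and 43.6% with ATRA+Corin. The lowest shares were over 200 and up to 300 bp (204 pairs), with 22.1% (DMSO), 26.0% (ATRA), 13.2% (Corin) and 11.3% (ATRA+Corin). Beyond 500 bp (174 pairs) they were again 36.8%, 45.4%, 20.7% and 24.1%. An interval bare between marked flanks was most frequent over 100 and up to 200 bp (232 pairs), in 27.2% of pairs with DMSO, 26.3% with ATRA, 46.55% with Corin and 45.7% with ATRA+Corin, and was rare beyond 500 bp (2, 1, 7 and 6 pairs). In every length class both lists with Corin held fewer whole intervals than both lists without it. The distance limit of 1000 bp cuts through a few pairs: of 29 pairs over 900 and up to 1000 bp apart the interval was whole in 11, 11, 7 and 10, and of 18 pairs just outside the limit, up to 1100 bp apart, in 8, 10, 8 and 6.

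**Figure D3:**
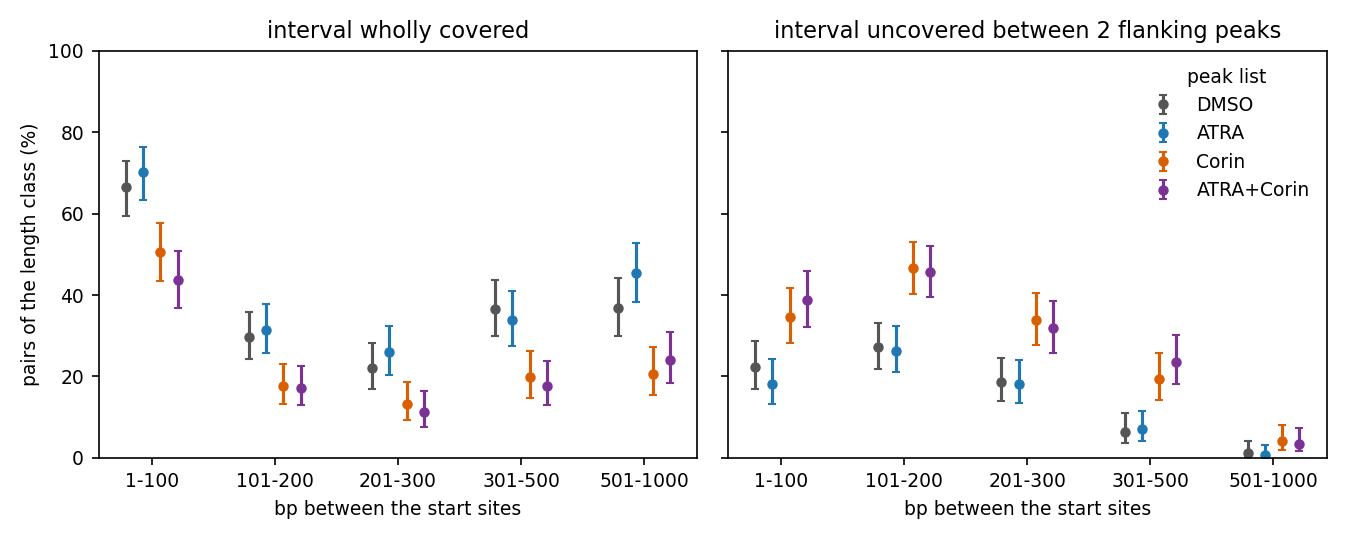
Share of pairs (y axis, percent) whose interval was wholly covered (left) or uncovered between 2 flanking peaks (right), by the distance between the start sites in bp (x axis) and peak list (colour), with 95% Wilson intervals. Whole cover is most frequent in the shortest class, from 70.2% with ATRA to 43.6% with ATRA+Corin, and the uncovered state is rarest in the longest class.

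Where an interval had an uncovered base between marked flanks, the longest uncovered run that met it was taken as the gap. In the 437 pairs with a gap in all 4 lists its median width was 225 bp with DMSO, 219 bp with ATRA, 300 bp with Corin and 296 bp with ATRA+Corin. Compared with DMSO, the gap was wider in 345 pairs and narrower in 90 with Corin, wider in 334 and narrower in 100 with ATRA+Corin, and wider in 202 and narrower in 233 with ATRA. The gap reached past both start sites in 29.3% of these pairs with DMSO, 27.7% with ATRA, 45.54% with Corin and 46.2% with ATRA+Corin.

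The outer edges of the flanking peaks differed between the lists too. In the 918 pairs with a peak in both flanks in every list, the span from the outer edge on 1 side to the outer edge on the other had a median of 3524 bp with DMSO, 3672 bp with ATRA, 4284 bp with Corin and 4358 bp with ATRA+Corin. It was wider than with DMSO in 616 pairs with ATRA, 855 with Corin and 861 with ATRA+Corin. The gap and the span were measured at pairs only, so neither is shown to be particular to them. The strongest peak at a pair stood high in its own list in each case, its −log10 q (the peak caller's measure of significance after adjustment, from the authors) lying at a median percentile of 85.6 with DMSO, 87.2 with ATRA, 87.7 with Corin and 89.7 with ATRA+Corin. Total cover was higher over whole lists as well, at 73.44 Mb with DMSO, 83.67 Mb with ATRA, 95.02 Mb with Corin and 108.5 Mb with ATRA+Corin. The median peak was 741 bp wide with DMSO, 870 bp with ATRA, 872 bp with Corin and 848 bp with ATRA+Corin. These widths exceeded that with DMSO in each drug list but did not follow the order of the spans.

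The marked flanks of a pair were mostly within 2-fold of each other in strength. Among pairs whose flanks had different strongest peaks, the authors' fold enrichment over input was more than 2-fold apart in 24.46% of 556 pairs with DMSO, 23.8% of 525 with ATRA, 15.8% of 691 with Corin and 19.1% of 708 with ATRA+Corin. The plus-strand gene had the higher fold in 280 and the minus-strand gene in 276 of the pairs with DMSO.

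The members belong to many pathways, and they are described by groups of gene symbols that stand in for roles. The histone pairs, which join a core histone H2A gene to an H2B gene in most cases and package new DNA in S phase, had the lowest mean interval cover of the groups with DMSO, ATRA and Corin. Of 14 such pairs, 12 had a peak in both flanks in each list, yet 0 intervals were wholly covered with DMSO, ATRA and ATRA+Corin and 1 with Corin (H3C7/H2BC9, the longest at 980 bp). Their mean interval cover was 9.68% with DMSO, 12.2% with ATRA, 12.4% with Corin and 20.2% with ATRA+Corin, while the median was 2.25%, 7.61%, 2.01% and 19.0%. The mean with Corin rests on H3C7/H2BC9, which went from 565 bp with DMSO to all 980 bp: over the 12 other distinct intervals the means were 5.001%, 8.73%, 6.15% and 15.0%. Against DMSO, 7 of the 14 pairs had more covered bases with Corin and 3 had fewer. H2AC17/H2BC17 had 18, 48, 31 and 90 of 241 bp covered with DMSO, ATRA, Corin and ATRA+Corin, and H2AC14/H2BC14, printed above, had 8, 42, 32 and 53 of 246 bp. H2AC15/H2BC15 was uncovered between marked flanks in all lists, and H2AC1/H2BC1 and H2BC8/H2AC8 had no peak in any. The median gap of the group was 312 bp with DMSO and 204.5 bp with ATRA+Corin. Histone genes are near-identical copies of each other, and how reads were shared among them is not given in the sources used here. H2AC7/H2BC7 and ENSG00000282988/H2BC7 are 1 interval counted under both names.

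Pairs with a cytoplasmic ribosomal protein, the building blocks of the ribosome, had a mean interval cover of 29.6% with DMSO, 28.4% with ATRA, 14.5% with Corin and 13.3% with ATRA+Corin, below that of all pairs in each list. In 15 pairs, each with a peak in both flanks in the 4 lists, the interval was whole in 2 with DMSO (RPL35/ARPC5L and RPL4/ZWILCH) and in 0 with ATRA, Corin and ATRA+Corin, and it was uncovered in 7, 5, 10 and 9. RPL4/ZWILCH had all of its 472 bp covered with DMSO, then 366 with ATRA, 218 with Corin and 87 with ATRA+Corin. RPL7/RDH10, the longest, had 888, 902, 882 and 874 of 970 bp covered. NKIRAS1/RPL15 had 60, 24, 0 and 0 of 143 bp, and its gap was 149 bp with DMSO, 182 bp with ATRA, 415 bp with Corin and 372 bp with ATRA+Corin. TRIM66/RPL27A and MED22/RPL7A were uncovered in all 4 lists. The median gap of the group was 190 bp with DMSO, 169 bp with ATRA, 350 bp with Corin and 262 bp with ATRA+Corin.

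Mitochondrial genes formed the largest group by role. In 41 pairs with a subunit or assembly factor of the respiratory chain, ATP synthase or protein import, the interval was whole in 9 with DMSO, 8 with ATRA, 5 with Corin and 0 with ATRA+Corin. Their mean cover was 33.0%, 33.1%, 22.5% and 14.7% in that order, and every one of the 41 had a peak in both flanks in each list. With ATRA+Corin, 22 of the 41 had fewer covered bases than with DMSO and 6 had more. Mitochondrial ribosomal proteins, which make the organelle's own ribosome, were in 27 pairs, of which 7 were whole with DMSO, 10 with ATRA, 4 with Corin and 4 with ATRA+Corin.

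Genes that repair and copy DNA were in 31 pairs. The interval was whole in 10 with DMSO, 11 with ATRA, 5 with Corin and 9 with ATRA+Corin, and the mean cover was 52.7%, 53.05%, 36.25% and 42.9%. TEX14/RAD51C and IGBP1C/RAD51C are 1 interval, whole in every list, under both names, and over the 30 distinct intervals the whole ones were 9, 10, 4 and 8. SMYD4/RPA1, which holds the large subunit of the single-strand binding protein, had 104 of 104 bp covered with DMSO and with ATRA and 0 with Corin and with ATRA+Corin. DDB1/TKFC, with the adaptor of the CUL4 ubiquitin ligases, had 124 of 124 bp except with Corin, where 0 bp were covered and a gap of 183 bp lay between the flanks. POLE/PXMP2, with the catalytic subunit of DNA polymerase epsilon, had 90 and 84 of 246 bp with DMSO and Corin and all 246 with ATRA and ATRA+Corin. LIG1/ZSWIM9 and MUTYH/TOE1 were whole in every list, and MRE11/ANKRD49 and RECQL/GOLT1B were uncovered in every list.

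RNA polymerase II and III subunits stood at the other end of the range. Of 9 pairs, 5 (55.6%) were whole with DMSO, 8 with ATRA, 6 with Corin and 5 with ATRA+Corin, against 37.7% of all pairs with DMSO, and CLCN2/POLR2H, MBLAC2/POLR3G, POLR2L/TSPAN4 and DZANK1/POLR3F were whole in the 4 lists. Zinc finger genes (33 pairs) were whole in 11, 15, 6 and 10 with DMSO, ATRA, Corin and ATRA+Corin, chaperone genes (14 pairs) in 2, 4, 2 and 4, and proteasome genes (5 pairs) in 2, 2, 2 and 1. In the smallest of these groups a single pair can decide the order of the lists. The groups also differ in interval length, with which cover varied. The median distance between start sites was 115 bp in the RNA polymerase pairs and 233.5 bp in all pairs. It was 238 bp in the histone pairs, 173 bp in the cytoplasmic ribosomal protein pairs and 156 bp in the respiratory chain group. No group was set against pairs of like length, so the part of length in the order of the groups was not tested.

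Several pairs are well known as divergent promoters. HSPD1/HSPE1, which encodes the mitochondrial chaperonin and its co-chaperonin, had 413 of 540 bp covered with DMSO, 540 with ATRA, 316 with Corin and 540 with ATRA+Corin. PPAT/PAICS, with enzymes of purine synthesis, had the same order, with 480, 646, 445 and 646 of 646 bp. Both were thus whole in the lists with ATRA and split in the other lists. The longest uncovered run was 127 bp (DMSO) and 224 bp (Corin) at HSPD1/HSPE1, and 119 bp and 110 bp at PPAT/PAICS. At PPAT/PAICS it was not the only uncovered run in either list, and fewer bases were covered with Corin than with DMSO. PRKDC/MCM4, with the DNA-dependent protein kinase and a subunit of the replicative helicase, had 631, 652, 649 and 806 of 806 bp and was whole with the combination only. NPAT/ATM, which joins the coactivator of histone gene transcription to the kinase that signals DNA breaks, had 253 of 430 bp with DMSO, 252 with ATRA, 19 with Corin and 0 with ATRA+Corin. The gap at NPAT/ATM was 245 bp with DMSO, 213 bp with ATRA, 426 bp with Corin and 486 bp with ATRA+Corin.

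SURF1/SURF2, with an assembly factor of cytochrome c oxidase, had all 64 bp covered with DMSO, ATRA and Corin and 2 bp with ATRA+Corin, where the gap was 114 bp. TAP1/PSMB9, with a peptide transporter and a proteasome subunit of antigen presentation, had all of its 489 bp covered in each list. Its peak had a −log10 q of 291 with DMSO, 372.8 with ATRA, 175.8 with Corin and 183.7 with ATRA+Corin, each the authors' value within its own list. COL4A1/COL4A2, which encodes the collagen chains of basement membranes, had 0 covered bases in its 128 bp and in both flanks of each list.

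The pairs that went from whole with DMSO to uncovered with Corin and had the strongest DMSO peak were STX10/IER2, ANAPC2/SSNA1, DDX51/NOC4L, DDX28/DUS2 and LSM7/SPPL2B. STX10/IER2, with a syntaxin of the Golgi and an immediate early gene, had 37 of 37 bp covered with DMSO and ATRA and 0 with Corin and ATRA+Corin. In place of a single peak with a −log10 q of 205.6 (DMSO) or 193.5 (ATRA), a gap of 127 bp (Corin) or 121 bp (ATRA+Corin) lay between the flanks. ANAPC2/SSNA1, with a subunit of the anaphase-promoting complex, had 117, 117, 0 and 21 of 117 bp. DDX51/NOC4L, with factors of ribosome assembly, had 139 of 139 bp with DMSO and 3, 0 and 4 with the drugs. DDX28/DUS2, with a helicase and a tRNA-modifying enzyme, was whole (53 bp) with DMSO and uncovered in each drug list. LSM7/SPPL2B, with a subunit of the RNA-binding Lsm ring, had 99, 31, 0 and 23 of 99 bp. Both flanks of each of these pairs kept at least 926 of 1000 bp under peaks with Corin.

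For the combination the corresponding pairs were MRPL14/TMEM63B, STX10/IER2, ARFRP1/ZGPAT, DDX28/DUS2 and LCMT2/ADAL. MRPL14/TMEM63B had 103 of 103 bp covered with DMSO, ATRA and Corin and 0 with ATRA+Corin, with a gap of 131 bp. ARFRP1/ZGPAT (64 bp, gap of 152 bp) and LCMT2/ADAL (100 bp, gap of 164 bp) had the same pattern, whole in 3 lists and bare in the list of the combination. Pairs uncovered with DMSO and whole with the combination included TRIAP1/GATC (61 bp), NUP37/PARPBP (70 bp) and KNOP1/IQCK (45 bp), and each of them was whole with ATRA and uncovered with Corin as well.

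Wholly covered with Corin were SUGP2/ARMC6 (87 bp), TATDN1/NDUFB9 (39 bp) and CEBPZ/NDUFAF7 (63 bp), all uncovered with DMSO and with ATRA+Corin. SUGP2/ARMC6 and CEBPZ/NDUFAF7 were whole with ATRA too, and TATDN1/NDUFB9, with a subunit of respiratory complex I, was whole with Corin alone, between DMSO flanks 125 bp apart. With ATRA, LRRC41/UQCRH, which holds a subunit of complex III, had 83 of 83 bp covered against 0 with DMSO, 0 with Corin and 16 with ATRA+Corin. DOLK/NUP188, with dolichol kinase and a nuclear pore protein, had 97 of 97 bp with ATRA against 0, 20 and 0. ACOX3/TRMT44 had 55 of 55 bp with DMSO and Corin and 0 with ATRA and ATRA+Corin, and AIDA/BROX had 74 of 74 bp with DMSO and 0 with each drug.

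**Figure D4:**
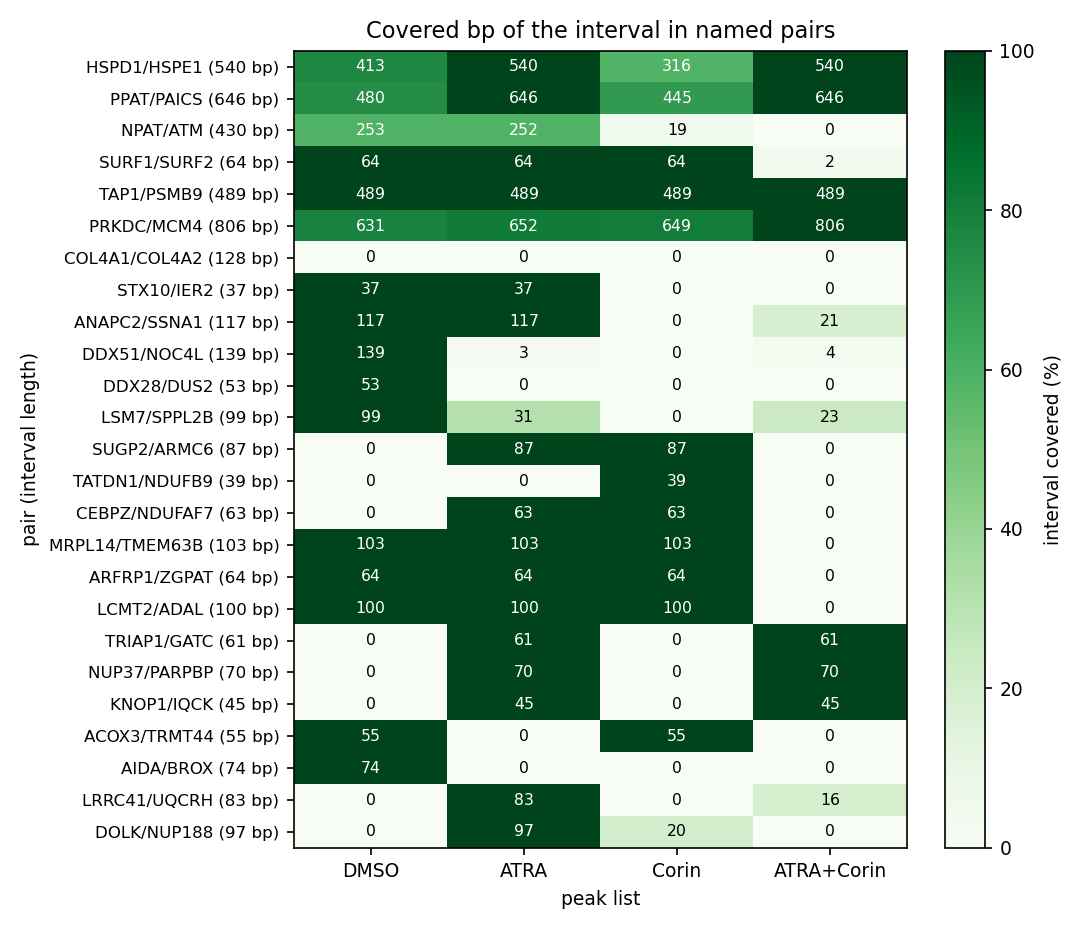
Covered bp of the interval (number in each cell) and its share of the interval (colour, percent) for the named pairs (rows, interval length in parentheses) in the 4 peak lists (columns). The top rows are the well-known pairs, from TAP1/PSMB9 with 489 bp in each list to COL4A1/COL4A2 with 0, and the rows below are pairs chosen for going between whole and uncovered.

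In all, 14 pairs, STX10/IER2 and SMYD4/RPA1 among them, were whole with DMSO and ATRA and uncovered in both lists with Corin. Others, chosen after their values were seen, are SMG6/SRR, SIRT6/ANKRD24 and NFS1/ROMO1. In the opposite corner, 70 pairs were uncovered between marked flanks in all 4 lists, TIMM8B/SDHD, PSMA2/MRPL32 and TUBD1/RPS6KB1 among them.

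Pairs without any H3K4me2 peak were few and largely the same in each list. No peak lay in the interval or flanks of 49 pairs with DMSO and of 50 in each drug list, and 48 had none in any list. Among the 48 were genes of other tissues, such as ABCG5/ABCG8 (sterol transporters of liver and gut), FOXL2/FOXL2NB (an ovarian transcription factor and its neighbour), COL4A4/COL4A3 (collagen of the kidney's filter), CRYAB/HSPB2 (small heat shock proteins of muscle and lens) and DUOXA1/DUOX1 (hydrogen peroxide production in thyroid and airways). These examples were picked, and the 48 were not sorted by tissue. POGLUT2/BIVM, S100A13/S100A1, ZNF829/ZNF568, FAM72A/SRGAP2 and the histone pairs H2AC1/H2BC1 and H2BC8/H2AC8 were among them too. The BOLA2/SLX1B and BOLA2B/SLX1A pairs are near-identical copies of each other, and how reads were placed on them is not given in the sources used here. Both sites were CpG-rich in 56.25% of the 48 pairs, compared with 86.9% of the 984. Only 3 pairs had a peak in some lists and not in others, each in a flank: FOXA1/TTC6 with DMSO and ATRA+Corin, ENSG00000267618/FNDC8 with DMSO and Corin, and GNGT2/ABI3 with ATRA. The flank peak at FOXA1/TTC6 had a −log10 q of 1.88 with DMSO and 4.20 with ATRA+Corin, and that at GNGT2/ABI3 of 4.84 with ATRA. At ENSG00000267618/FNDC8 a strong peak reached 7 bp (DMSO) and 71 bp (Corin) into the flank. No pair had peaks in all 3 drug lists and none with DMSO, or the reverse.

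Paired start sites were next set beside the 1875 protein-coding start sites whose only divergent neighbour within 1000 bp starts a long noncoding RNA (lncRNA) and the 16200 with no divergent start site in that range. A peak lay within 1 kb of 94.9% of paired sites with DMSO, of 82.3% with an lncRNA partner and of 54.96% of the lone sites. The start site itself was under a peak in 64.4% of paired sites with DMSO, 66.4% with ATRA, 48.3% with Corin and 47.8% with ATRA+Corin. For lone sites the shares were 43.6%, 44.2%, 35.8% and 36.2%, and with an lncRNA partner they were 61.55%, 62.8%, 46.6% and 44%. Paired sites are more often CpG-rich than lone sites (90.7% against 58.85%). Among CpG-rich sites alone the classes lay closer together, with 64.8% of paired and 60.8% of lone sites covered with DMSO, 67.4% and 61.2% with ATRA, 48.3% and 47.6% with Corin, and 46.9% and 47.5% with ATRA+Corin.

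The classes of CpG-rich sites lay farther apart in how often the site was a gap between marked sides. An uncovered start site with a peak within 1 kb on both sides was found in 31.55% of CpG-rich paired sites with DMSO, 29.1% with ATRA, 47.96% with Corin and 49.5% with ATRA+Corin. For CpG-rich sites with an lncRNA partner the shares were 19.7%, 18.7%, 35.7% and 38.6%, and for lone CpG-rich sites 12.2%, 12.1%, 25.3% and 25.75%. The classes kept this order in each list. At a site with a protein-coding or lncRNA partner, the upstream 1 kb also holds the partner's start site, by the definition of these classes. The part of this in the order was not tested. Counted only among CpG-rich sites with a peak on both sides, the uncovered share was 32.7%, 30.2%, 49.8% and 51.4% at paired sites. At lone sites it was 16.7%, 16.55%, 34.7% and 35.2%. With an lncRNA partner it lay between these in each list, at 23.44%, 22.17%, 42.57% and 45.97%.

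**Figure D5:**
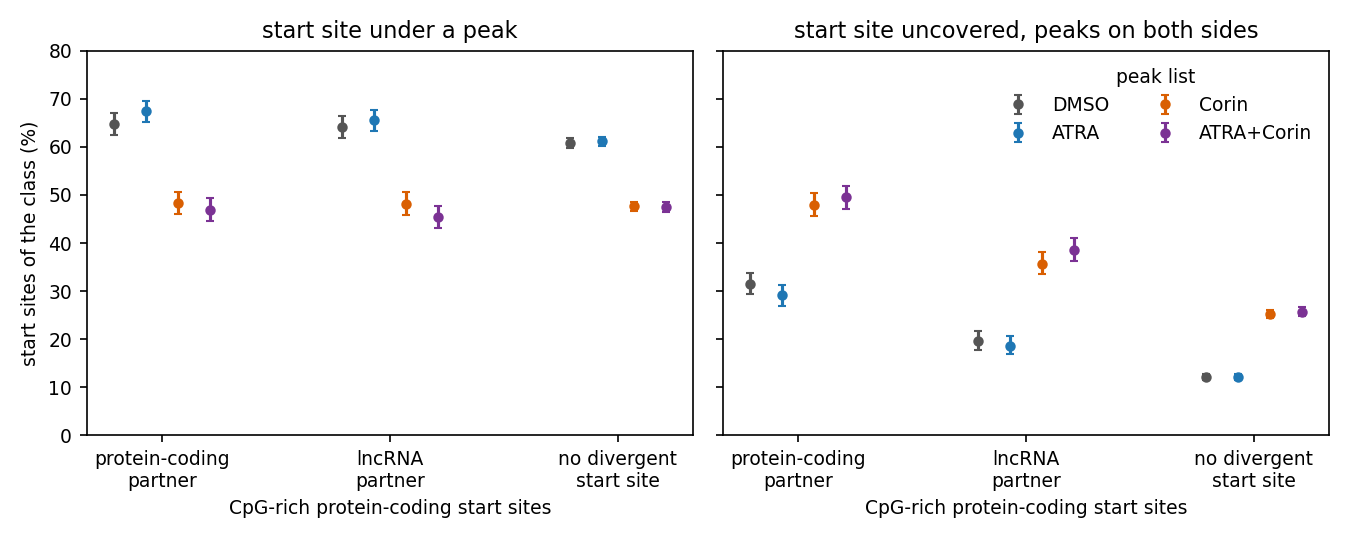
Share of CpG-rich protein-coding start sites (y axis, percent) under a peak (left) and uncovered with a peak within 1 kb on both sides (right), by the kind of divergent partner (x axis) and peak list (colour), with 95% Wilson intervals. Cover with DMSO is 64.8% at paired and 60.8% at lone sites. The uncovered state is most frequent at paired sites, at 47.96% with Corin against 35.7% with an lncRNA partner and 25.3% of lone sites.

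Sequence features were counted in the 234 bp upstream of each start site, where a window counts once for a motif that it holds on either strand. CCGGAAG was found in 27.8% of the windows of paired sites and 11.6% of all windows, and AAGATGGC in 3.54% and 1.24%. CCAAT was in 38.4% and 33.05%, GCGCATGC in 5.86% and 3.75%, GGGCGGG in 47.4% and 44.97%, and TATAAA in 3.43% and 8.75%. Among CpG-rich sites CCGGAAG was in 28.6% of paired and 12.9% of lone windows. A window upstream of a paired site often holds the other gene's start site, and the sites of a pair share much of their windows. The median GC content of the intervals was 64.8% and their median observed/expected CpG ratio 0.908. A match describes letters and is not evidence of binding.

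Motifs were also counted in intervals that were covered in every list and in those that were not. CCAAT had the widest difference in percentage points, though not as a ratio. It was present in 24.7% of the 154 intervals that were whole in all lists and in 59.7% of the 437 that had marked flanks in all lists and were whole in none, beside 44.4% of all 984. The sets also differ in length and composition, since the median distance was 129 bp and the median GC content 71.35% in the first set, and 246 bp and 62.8% in the second. Among pairs over 200 and up to 300 bp apart, CCAAT was in 3 of 17 intervals of the first set and 82 of 130 of the second, where the median GC content was 67.25% and 62.3%. The part of base composition in this was not tested. CCGGAAG was in 33.1% and 32.5% of the sets and GCGCATGC in 2.60% and 10.5%. TATAAA was in 1.30% and 6.41%, AAGATGGC in 0% and 3.43%, and GGGCGGG in 57.1% and 56.5%.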

How the data were processed

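H3K4me2 ChIP-seq of U-937 cells was analysed from 4 deposited peak lists, 1 per treatment, each a pooled call on its H3K4me2 libraries with the input as control. The lists are labelled as the optimal peaks of a reproducibility overlap. Trimmomatic, Bowtie2, Picard and MACS2 and the build hg38 are named, without versions, per the submitters' processing notes. Thresholds are not given in the sources used here. Each peak carries a fold enrichment, a ratio over input, and −log10 p and −log10 q, all deposited by the authors and used only within a list; depth per library is unknown. The lists number their peaks, and 16 to 22 of the lowest 30000 numbers in a list were absent, so at least these peaks are not analysed here. Higher numbers were not checked, so how many peaks are absent in all is unknown. In each list 0 peaks ended past a GRCh38 chromosome.

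Start sites came from GENCODE release 44. Overlapping peaks were merged, and covered bases were counted in each interval and in flanks of 1000 bp with Python 3.11.15, numpy 2.4.6 and pandas 2.3.3; the code was tested on simulated peaks. With 1 list per treatment no test was run. The members, gene groups and tests were chosen with earlier results of these data known, and gap width and outer span were added after cover had been seen. Named pairs were well-known divergent pairs, gene groups by symbol, and, per drug against DMSO, the pairs that went between whole and uncovered with the highest −log10 q (up to 5 lost for Corin and for ATRA+Corin, otherwise up to 3). RPS12/SLC18B1 was not found by the rule, and some named pairs and markers are not reported here. Alternatives tried were peaks with a −log10 q of 5 or more, lists of equal length, peaks up to 150 bp apart joined, other distance limits and flank widths, CpG-rich pairs, pairs that share no gene, and cover of at least 50% of the interval.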

Additional observations from a re-analysis of the deposited data

How the results depend on the processing

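Across 10 alternative settings, 230 of 252 values kept their direction and stayed within 1.5 times the value reported, or, for shares, within their interval. In each of the 8 settings that bear on them, fewer intervals were whole with Corin and with ATRA+Corin than with DMSO or ATRA, losses exceeded gains for both against DMSO, and gains exceeded losses for ATRA against DMSO. With 65172 peaks taken from each list, the whole intervals were again 371, 400, 236 and 220. This setting, like that of a −log10 q of 5 or more, drops only the weaker peaks of a list. With DMSO, 932 of the 935 pairs with a peak had a strongest −log10 q of at least 5. These 2 settings could therefore change little and say little about the size of the lists. With start sites at least 100 bp apart (796 pairs), whole intervals numbered 246 with DMSO, 141 with Corin and 138 with ATRA+Corin, and 46 were lost with ATRA+Corin against Corin. When cover of 50% of the interval counted, 400 intervals passed with Corin and 378 with ATRA+Corin, and with peaks up to 150 bp apart joined 335 were whole with ATRA+Corin. Among CpG-rich pairs (855), 27 or 28 had no peak in a list, namely 27 with DMSO, 28 with ATRA, 28 with Corin and 27 with ATRA+Corin, and 8 gained whole cover with ATRA+Corin against ATRA. These settings remove pairs or change what counts, so lower or higher counts follow from their construction.

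The share of start sites under a peak was higher at paired than at other start sites by 18.9 percentage points with DMSO, 20.3 with ATRA, 11.4 with Corin and 10.8 with ATRA+Corin. This moved most with CpG content: among CpG-rich sites the difference was 3.52 (DMSO), 5.59 (ATRA), 0.604 (Corin) and -0.25 (ATRA+Corin), the last with its sign reversed. With peaks up to 150 bp apart joined it was 23.2 with DMSO, 23.1 with ATRA and 13.2 with ATRA+Corin, and with start sites at most 500 bp apart 17.4 with ATRA, 8.8 with Corin and 6.96 with ATRA+Corin; the cause was not tested.

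No paired analysis was possible because each treatment has 1 pooled list, with no replicate to leave out and no block to fit. Peak lists show only where a threshold was passed, depth per library is unknown, and no gap under 102 bp is recorded.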
